A study of Mus musculus with 4 samples.

Results

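Macroautophagy is the route by which a cell wraps part of its cytoplasm, such as a damaged organelle or a protein aggregate, in a growing double membrane and delivers it to the lysosome. A kinase complex starts the process, a lipid kinase marks the membrane, carrier proteins feed it with lipid, and ubiquitin-like proteins of the Atg8 family (LC3 and GABARAP) are attached to it and hold the cargo receptors. Neurons depend on this route because they do not divide, and autophagosomes formed in the axon travel along microtubules, which paclitaxel stabilises, back to the cell body.

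The 41 genes described here encode this machinery. They were chosen by symbol: the Atg-numbered genes, the Ulk kinases, the LC3 and GABARAP genes, the subunits of the lipid kinase complexes, the Wipi genes, cargo receptors and Tfeb. The rule matched 41 rows of the 48431 genes in the table, with 1 row for each symbol, so that no measured value was needed to choose among rows. The samples were 4 ribosome footprint libraries of dorsal root ganglia, the clusters of sensory neuron cell bodies beside the spinal cord, from female wild-type SW mice. All mice had received paclitaxel, spelled "Paclitxel" in the labels, intraperitoneally at 4 mg/kg on alternate days, with 4 injections in total. Untreated mice and RNA libraries were not analysed here, so no value is an effect of the drug or a translational efficiency. The labels do not give the animals' age or say whether each library came from its own animals, and the spread between libraries may therefore be technical.

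A gene's level is given in CPM, its reads scaled to a library total of 1000000, as mean ± SD over n = 4 libraries. Levels of different genes are compared per kilobase (kb) of the longest annotated coding sequence, because a longer sequence collects more reads. Fold differences and log2 ratios between genes are those of (CPM + 1) per kb, which understates the differences of low genes. Each library held between 5731508 and 14633415 assigned reads. Markers of neurons, sensory neurons, Schwann cells and satellite glia were all detected (23 of 23), as were those of muscle, adipocytes, fibroblasts, endothelium and blood cells (35 of 35). The marker sums that differed most between libraries were those of skeletal muscle, at 1627 to 6943 CPM with the highest value in replicate 1, and of adipocytes, at 170 to 401 CPM. In whole ganglia, fewer cells of a type and fewer reads per cell cannot be told apart.

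The Atg8 family and the receptor gene Sqstm1 took 48.8% of all reads on the 41 genes, and parts of their coding sequences are shown here. Newly made Atg8 proteins are cut by Atg4 proteases behind a glycine, which is then joined to a membrane lipid. The last 60 coding bases of the 5 family members, from the principal transcript in GENCODE M21 on GRCm38 and with the stop codon included, are given with the codon of that glycine in capitals.
Map1lc3a (chr2:155277578-155277637, plus strand): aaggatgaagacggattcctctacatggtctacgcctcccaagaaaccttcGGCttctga
Map1lc3b (chr8:121596711-121596770, plus strand): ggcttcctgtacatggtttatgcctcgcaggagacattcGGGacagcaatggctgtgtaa
Gabarap (chr11:69994465-69994524, plus strand): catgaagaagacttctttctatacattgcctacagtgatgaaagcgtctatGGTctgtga
Gabarapl1 (chr6:129541108-129541167, plus strand): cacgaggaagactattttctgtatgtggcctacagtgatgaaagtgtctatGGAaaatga
Gabarapl2 (chr8:111952346-111952405, plus strand): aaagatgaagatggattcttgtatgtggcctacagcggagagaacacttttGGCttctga
The glycine codon was followed by 1 codon before the stop in 4 of the genes and by 5 codons in Map1lc3b. Over the whole coding sequence, Map1lc3a and Map1lc3b shared 76.5% of aligned bases and Gabarap and Gabarapl1 shared 74.9%, whereas Map1lc3a and Gabarapl1 shared 53.4%.

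Cargo receptors dock on these proteins through a short LC3-interacting region. The stretch of Sqstm1 that encodes it, on GRCm38 with the 4 core codons from tryptophan to leucine in capitals, is shown because Sqstm1 had the highest CPM of the 41 genes.
Sqstm1 (chr11:50202523-50202579, minus strand): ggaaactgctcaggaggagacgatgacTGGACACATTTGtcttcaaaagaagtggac

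All 41 genes were detected, which means 1 CPM or more in all 4 libraries, where 62.5% of 21683 protein-coding genes were. Their levels nevertheless spread widely, from 916 ± 139 CPM per kb for Gabarapl1 to 0.573 ± 0.123 CPM per kb for Atg9b. The median member stood at 20.7 CPM per kb, and the median of 13549 detected protein-coding genes was 15.2 CPM per kb. Reads behind a single value ranged from 10, for Atg9b in replicate 1, to 12843, for Sqstm1 in replicate 3. In the order of levels per kb, 32 of 40 pairs of neighbours had library values that overlapped. Within libraries the upper gene was the higher in 4 of 4 for 19 of the 40, and the order of the other 21 differed between libraries. Steps without overlap lay at the top, between Map1lc3a and Sqstm1, Gabarap and Map1lc3b, Map1lc3b and Gabarapl2, and Tax1bp1 and Atg3. Further down they lay between Pik3c3 and Atg5, between Ambra1 and Ulk1, between Atg4a and Atg16l2, and between Atg16l2 and Ulk4. These steps are for the longest coding sequence of each gene, and their overlap was not examined with other lengths. With the median coding length Ambra1 lay below Ulk1.

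**Figure D1:**
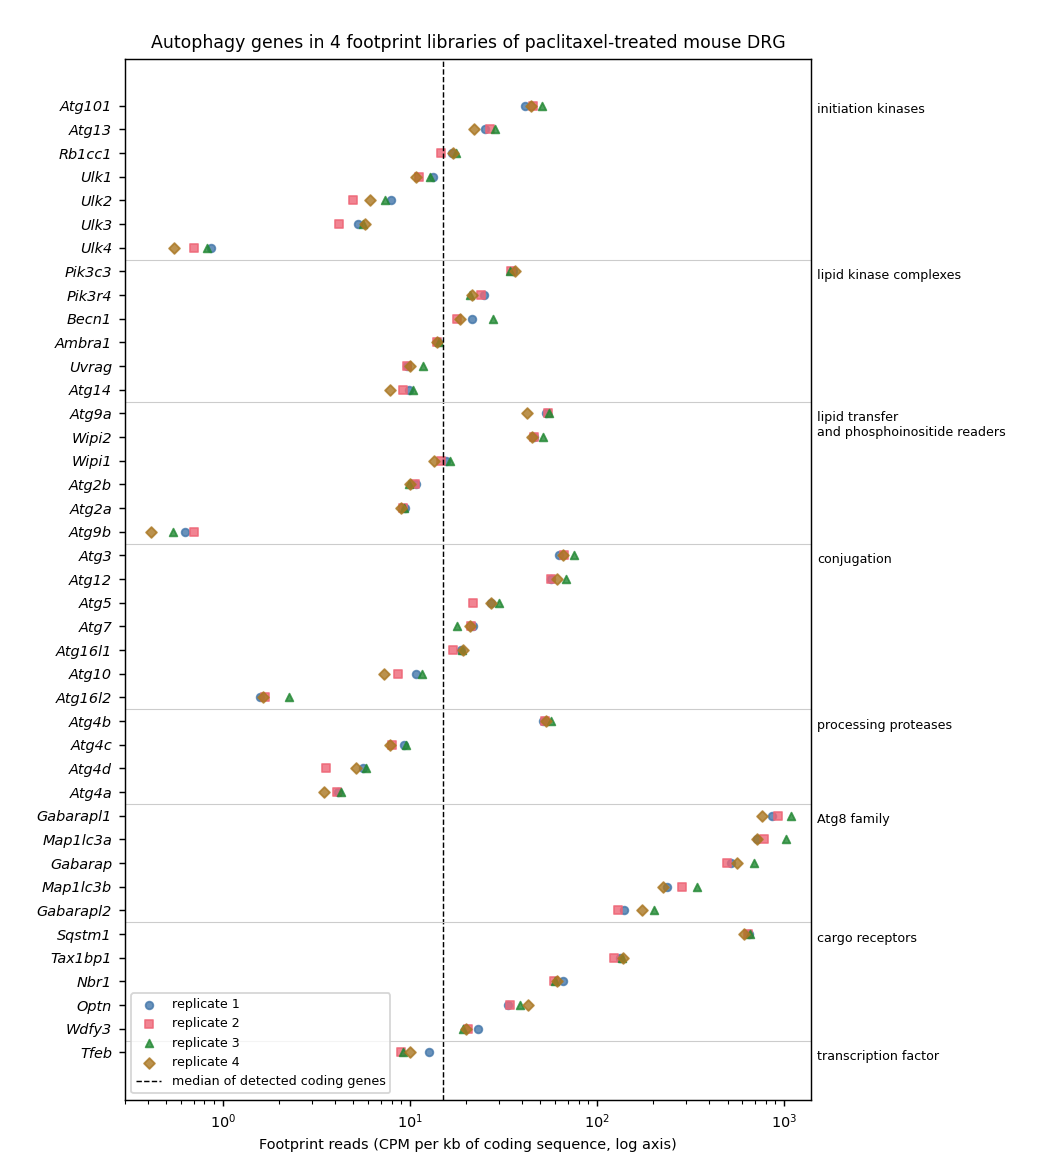
Level of each of the 41 autophagy genes in CPM per kb of coding sequence (log axis), with 1 point per library and genes grouped by role. The dashed line is the median of detected protein-coding genes (15.2 CPM per kb), and all 5 Atg8 family members and all 5 cargo receptor genes lie to its right in all 4 libraries.

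Each gene was tested against the median gene of its library in a limma fit over 14113 coding genes. Of the 41 members, 24 were called above the median gene, 15 below it and 2 neither way, at a limma adjusted p under 0.05. The same calls were made for 46.1% of all tested genes above and 46.3% below, so the members' calls lay higher than those of the table by a modest margin, which was not tested. Without the filter on low values the median gene is lower by 0.76 on the log2 scale, and 32 members were called above it and 7 below. In that fit 8467 of 18030 tested genes were called above and 8452 below. With the filter, the median member exceeded the median gene by 0.48 ± 0.11 on the log2 scale (SD over n = 4 libraries). The quartiles of the members were −0.48 and 1.90, against −1.42 and 1.39 for all tested genes. By role, all 5 Atg8 genes and all 5 cargo receptor genes were called above. Of the 7 initiation genes 4 were called below (Ulk1, Ulk2, Ulk3 and Ulk4), as were 3 of 4 processing proteases. Among these genes called below, Ulk1 and Atg4c stood above the median gene without the filter on low values. Differences between the roles were not tested.

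**Figure D2:**
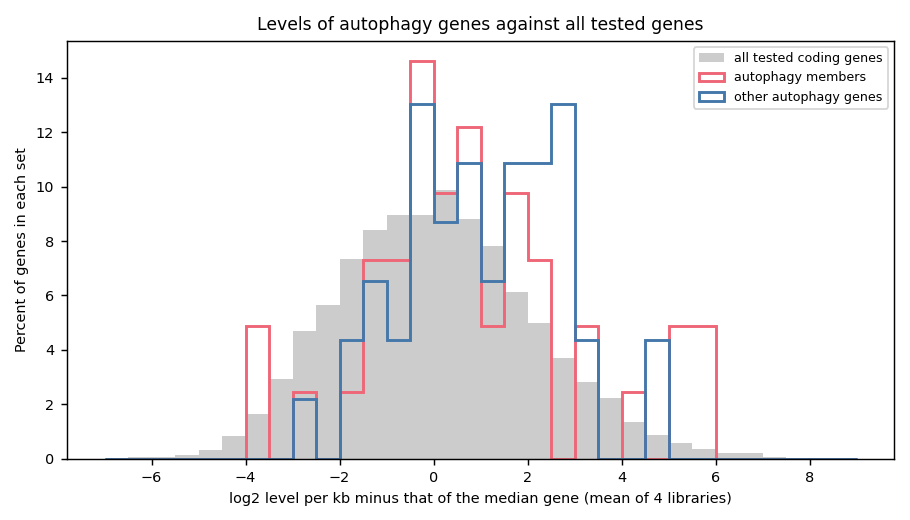
Distribution of the log2 level per kb minus that of the median gene, as percent of each set, for all tested coding genes (grey), the 41 autophagy genes (red) and 46 other genes of the pathway (blue). The members span from −3.99 (Atg9b) to 5.95 (Gabarapl1).

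Among the genes that start autophagy, the regulatory subunits Atg101 and Atg13 had more reads per kb than the kinases. Atg101, which holds the complex together through Atg13, had 27.0, 29.8, 33.1 and 29.1 CPM in replicates 1 to 4. Atg13, the adaptor of the kinase, had 39.3, 41.7, 44.1 and 34.1 CPM. Per kb these were 45.5 ± 3.88 and 25.7 ± 2.79, and Atg13 was below Atg101 in 4 of 4 libraries (log2 −0.84 ± 0.13), but above it without the division by length (0.40), and further below it with the median coding length (−1.73). The large scaffold gene Rb1cc1 (FIP200) had 80.1, 70.0, 84.3 and 81.4 CPM, which is 16.6 ± 1.30 per kb and close to the median gene (log2 0.19 ± 0.07, SE; limma adjusted p = 0.027). That call was lost without replicate 1, 3 or 4, with limma adjusted p of 0.051, 0.091 and 0.11. The level depended on the length used, at log2 1.77 above the median gene with the median coding length, 1.95 without the division by length and 0.94 without the filter. Of its coding sequence 70.7% was unique, and the pseudogene Gm13961, which shares the rest, had 0.207 CPM on average.

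The kinase genes themselves were lower. Ulk1, whose kinase receives signals from mTORC1 and AMPK, had 42.0, 35.5, 40.6 and 34.2 CPM, and its relative Ulk2 had 24.8, 15.5, 22.8 and 19.2 CPM. The 2 sets of values did not overlap, and per kb Ulk1 was 1.80-fold above Ulk2 in 4 of 4 libraries (log2 0.85 ± 0.19, or 1.74 with the median coding length). Both lay below the median gene, by −0.26 ± 0.07 for Ulk1 (SE; limma adjusted p = 0.0051) and −1.11 ± 0.10 for Ulk2 (SE; limma adjusted p = 2.4e-07). Ulk1 turned to above the median gene with the median coding length (0.16), without the filter on low values (0.50) and without the division by length (0.92), as Ulk2 did in the last case (0.043). Of all detected coding genes 34.2% were highest in replicate 1, as were 10 of the 41 members. Ulk2 was among them, and the marker sums of muscle, fibroblasts, macrophages, endothelium, adipocytes and neutrophils were also highest in that library. Long genes were raised in that library as well, by a median log2 of 0.079 for coding sequences over 2400 and up to 4800 nt, and the part of any of these in its level was not tested. Ulk3, a kinase tied to Hedgehog signalling as well, had 7.50, 5.94, 7.93 and 8.15 CPM. Ulk4, a pseudokinase, had 3.32, 2.70, 3.14 and 2.11 CPM and was 5.94-fold below Ulk3 in (CPM + 1) per kb. It stood at the 1.17th percentile of detected genes per kb, and only Atg9b was lower among the members.

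The class III phosphoinositide 3-kinase and its partners ranged from 35.3 CPM per kb for Pik3c3 to 9.37 CPM per kb for Atg14. The catalytic subunit gene Pik3c3 (VPS34) had 94.7, 92.4, 91.1 and 97.2 CPM, and Pik3r4 (VPS15), which anchors it, had 101, 98.1, 85.8 and 88.2 CPM. As raw CPM these overlap, and per kb Pik3c3 was 1.54-fold higher (log2 0.63 ± 0.12) in 4 of 4 libraries, a direction that turned with the median coding length of each gene's transcripts (−1.38). Becn1, the scaffold shared by the complexes, had 28.8, 24.2, 37.5 and 24.8 CPM. Its value was highest in replicate 3, and it was lower than Pik3c3 per kb in 4 of 4 libraries (log2 −0.70 ± 0.31, or 1.17 with the median coding length). Exons of Cntd1 cross part of its coding sequence on the other strand, of which 90.3% was unique, but Cntd1 itself had 0.112 CPM on average.

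Atg14 and Uvrag compete for Becn1 and direct the lipid kinase to new autophagosomes or to endosomes. Atg14 had 14.7, 13.6, 15.4 and 11.6 CPM and Uvrag 20.2, 20.2, 24.5 and 21.01 CPM. Per kb they were not separated, at 9.37 ± 1.13 and 10.3 ± 0.983, with Uvrag higher in 3 of 4 libraries (log2 −0.10 ± 0.16; exact sign-flip permutation p = 0.375, 2-sided). With the median coding length, which is shorter for Uvrag, the log2 ratio was −2.21. Both were called below the median gene, at −0.56 for Atg14 and −0.46 for Uvrag, but above it without the filter on low values (0.20 and 0.30), as was Uvrag with the median coding length (1.18). Pik3c3, Pik3r4 and Becn1 were called above it, and Pik3r4 and Becn1 stood at 2.33 and 2.12 with the median coding length. Ambra1, which recruits ubiquitin ligases to the initiation complexes, had the steadiest level of all members, at 55.1, 54.3, 55.8 and 54.5 CPM, a coefficient of variation of 1.18%. It was not called away from the median gene (log2 −0.04 ± 0.07, SE; limma adjusted p = 0.62). It was called below with the median coding length (−0.40) and above without the filter (0.72) or the division by length (1.44).

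For the proteins that carry lipid to the membrane, 1 gene of each kind dominated or the relatives were level. Atg9a, the scramblase of the Atg9 vesicles, had 136, 139, 140 and 108 CPM, and its relative Atg9b had 1.74, 1.94, 1.503 and 1.15 CPM. The difference was the widest of the 23 gene pairs compared, 55.6-fold per kb (log2 5.80 ± 0.10). The size depends on the pseudocount, with a log2 ratio of 6.42 at a pseudocount of 0.1. Of the Atg9a coding sequence 70.8% was unique, and the overlapping transcript Gm29253 on the same strand had 0.288 CPM on average. The lipid channel genes Atg2a and Atg2b had 51.8 to 53.9 and 61.7 to 67.3 CPM. Per kb they were at 9.22 ± 0.158 and 10.4 ± 0.444, with Atg2a the lower in 4 of 4 libraries (log2 −0.16 ± 0.06). Both were called below the median gene, at −0.65 and −0.48, and stood above it without the filter on low values (0.11 and 0.27) or the division by length (1.39 and 1.67).

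Wipi proteins read the phosphoinositide made by Pik3c3, and Wipi2 brings in Atg16l1. Wipi2 had 61.4, 62.0, 68.5 and 60.2 CPM and Wipi1 had 20.9, 19.8, 22.0 and 17.9 CPM. Their values were far apart in all libraries, with Wipi2 3.04-fold higher per kb, and Wipi1 was not called away from the median gene (log2 0.10 ± 0.07, SE; limma adjusted p = 0.2).

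Conjugation genes divided between high and low members. Atg3, the E2-like enzyme that joins Atg8 proteins to lipid, had 59.0, 62.9, 71.0 and 62.4 CPM. Atg12, the ubiquitin-like protein that is attached to Atg5, had 24.1, 24.2, 29.0 and 25.8 CPM. Per kb they were the highest conjugation genes, at 67.8 ± 5.41 and 60.9 ± 5.39. Atg10, the E2-like enzyme that joins Atg12 to Atg5, had only 6.80, 5.51, 7.38 and 4.60 CPM and was 6.22-fold below Atg3 per kb, the other E2-like enzyme. Atg5 had 22.5, 17.9, 24.8 and 22.5 CPM, and its conjugation partner Atg12 was 2.28-fold above it per kb (log2 of Atg5 over Atg12 −1.19 ± 0.13), although the CPM differed little. Atg7, the E1-like enzyme of both branches, had 48.2, 47.1, 39.7 and 46.7 CPM and was lowest in replicate 3, in contrast to Atg3, Atg5 and Atg12, which were highest there. Atg16l1, which places the conjugate on the membrane, had 35.1, 32.0, 35.5 and 36.2 CPM, and its relative Atg16l2 had 2.97, 3.13, 4.24 and 3.07 CPM. The 8.24-fold difference in (CPM + 1) per kb (log2 3.04 ± 0.19) was seen in 4 of 4 libraries.

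Of the Atg4 proteases, which cut the Atg8 proteins at the glycine shown above and later release them from lipid, Atg4b held most reads. It had 61.1, 62.7, 67.5 and 63.3 CPM, or 54.0 ± 2.33 per kb. Atg4c had 12.7, 11.0, 13.2 and 10.8 CPM, and Atg4d had 8.03, 5.08, 8.27 and 7.39 CPM. Atg4a had 4.89, 4.86, 5.13 and 4.12 CPM, the lowest of the proteases. Per kb Atg4b was 5.83-fold above Atg4c, 9.64-fold above Atg4d and 11.3-fold above Atg4a, which are log2 ratios of 2.54, 3.27 and 3.50. With the median coding length, which is shorter for Atg4b, they were 4.003, 4.002 and 4.96. The Atg4a level is uncertain, because only 17.6% of its coding sequence was unique. The copy Atg4a-ps was listed at 0 in all libraries, and reads of Syt6, which shares part of that sequence, averaged 67.9 CPM.

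All 5 Atg8 family members were far above the median gene, at the 93.7th to 99.4th percentile of detected genes per kb. Gabarapl1 had 305, 328, 385 and 268 CPM, and Map1lc3a, which encodes LC3A, had 262, 283, 371 and 262 CPM. They were the 2 highest members per kb, at 916 ± 139 and 811 ± 143, and Gabarapl1 was the higher in 4 of 4 libraries. An antisense transcript, 1700101I11Rik, overlaps Gabarapl1, of which 80.6% was unique, and had 0.266 CPM on average. Gabarap had 182, 174, 243 and 197 CPM and was below Gabarapl1 in 4 of 4 libraries (log2 −0.69 ± 0.19).

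LC3B, the form most used to follow autophagy in the laboratory, was not the leading LC3 gene. Its gene Map1lc3b had 123, 149, 178 and 117 CPM, below Map1lc3a in every library. Per kb Map1lc3a was 2.97-fold higher (log2 1.57 ± 0.10), or log2 1.10 with the shorter principal coding sequence of Map1lc3b, which raises Map1lc3b from 273 to 378 CPM per kb. Gabarapl2 (GATE-16) was the lowest of the family, with 48.9, 45.6, 71.0 and 61.1 CPM, 3.49-fold below Gabarap and 5.63-fold below Gabarapl1. Its level is uncertain, since 2.46% of its coding sequence was unique and the rest also occurred in transcripts of other genes. The 3 pseudogenes sharing most, Gm3724, Gm6051 and Gm5829, had 0.169, 0.306 and 0.0752 CPM on average.

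**Figure D3:**
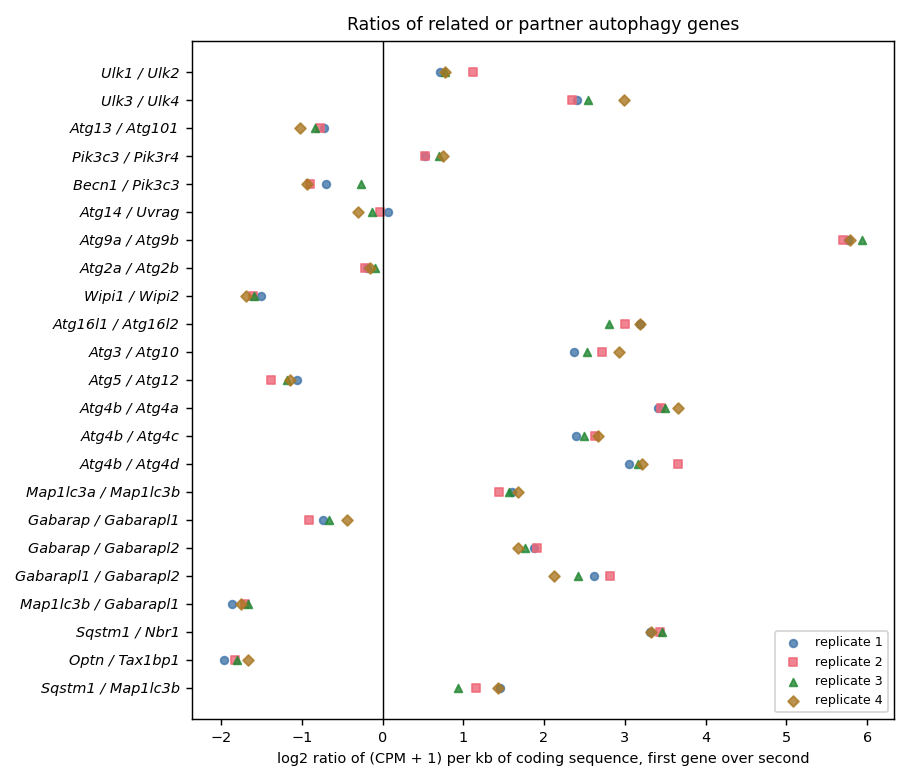
Log2 ratio of (CPM + 1) per kb between the 2 genes of each of the 23 pairs, with 1 point per library. In 22 pairs all 4 points lie on the same side of 0, and Atg14 over Uvrag is the exception.

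Across the 23 pairs, the first gene was higher in all 4 libraries in 14 and the second in 8. The exact sign-flip permutation test has a smallest possible p of 0.125 with 4 libraries. Those 22 pairs reached it and none could pass 0.05.

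Cargo receptors carried the most reads of the 8 groups, with a summed level of 1692, 1610, 1662 and 1616 CPM. Sqstm1 (p62; chromosome 11, 50199366 to 50210827, minus strand, GRCm38), which binds ubiquitin and Atg8 proteins, had 867, 855, 878 and 811 CPM. It alone took 22.3% of the reads on the 41 genes, with a coefficient of variation of 3.41%. Nbr1, a relative that acts with it on aggregates, had 195, 175, 178 and 181 CPM and was 10.4-fold lower per kb. Tax1bp1 had 324, 303, 335 and 336 CPM. Optn, a receptor for damaged mitochondria that is mutated in some human motor neuron disease, had 59.0, 60.5, 68.2 and 75.4 CPM, 3.51-fold below Tax1bp1 per kb (log2 −1.81 ± 0.12, or −4.10 with the median coding length). Wdfy3 (ALFY), a very long scaffold of aggregate clearance, had 246, 216, 204 and 212 CPM, but only 20.7 ± 1.75 per kb. The receptor and the membrane protein it binds were both near the top of the list, with Sqstm1 2.37-fold above Map1lc3b per kb (log2 1.25 ± 0.25) or log2 0.78 with the principal coding length.

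Tfeb, a transcription factor that switches on lysosomal and autophagy genes, was called below the median gene. It had 20.2, 14.4, 14.8 and 16.0 CPM, or 10.2 ± 1.67 per kb (log2 −0.45 ± 0.09, SE; limma adjusted p = 0.00035). Its direction turned with the median coding length (1.43) and without the filter on low values (0.30). Tfeb was highest in replicate 1, as were 34.2% of all detected coding genes. The marker sums of muscle, fibroblasts, macrophages, endothelium, adipocytes and neutrophils were highest there too, and their part in the Tfeb level was not tested. Its relatives Tfe3 and Mitf, picked after their values were seen, had 19.5 ± 1.94 and 6.05 ± 0.771 CPM per kb.

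Tfeb binds promoters at the E-box CACGTG and at longer forms of it. RefSeq promoter windows on GRCm38.p6, from 250 bases before to 50 after a start, were at hand for 34 of the 41 genes. The letters CACGTG, a palindrome and so the same on both strands, occurred in 4 of them (11.8%), Atg3, Atg5, Atg7 and Atg14. It occurred in 11.4% of 10293 detected coding genes with a window and in 9.19% of all 15994. The longer TCACGTGA, which contains it, occurred in Atg3 alone (2.94%), against 2.06% of detected and 1.44% of all genes. The windows of Atg7 (chr6:114670846-114671145) and Atg14 (chr14:47568385-47568684) lay inside these genes as annotated in GENCODE M21. Their outermost starts there are at 114643097 and 47570649.

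No member was called more variable between the libraries than genes of the same level. In limma's variance test over 15728 genes, 1.54% were called at an adjusted p under 0.05, and 0 of the 41 members were. At an unadjusted p under 0.05 the count was 0 too, and Map1lc3b came nearest (limma adjusted p = 0.76). On simulated libraries of these depths, with the same dispersion of 0.01 for all genes, the test recovered 73% of genes changed 2-fold in 1 library. It recovered 100% of those changed 4-fold. The changed genes were drawn above a minimum level that the lowest members, such as Atg9b, do not reach. The real libraries need not have that dispersion, so these shares do not give the power of the test for the members. The coefficient of variation was under 5% for 8 members, which were Sqstm1, Tax1bp1, Nbr1, Pik3c3, Atg2a, Atg2b, Atg4b and Ambra1. It was over 20% for 6, Becn1, Ulk2, Gabarapl2, Atg4d, Atg10 and Atg9b. The shares of all genes past these limits were not counted. At a mean under 10 CPM, where Atg4d, Atg10 and Atg9b lie, the median was 19.1% over 7 members and 19.1% over all genes of that level. At a mean of 10 to 100 CPM the median was 8.63% over 25 members and 11.4% over all genes of that level. At 100 to 1000 CPM, where most Atg8 genes lie, it was 11.9% over 9 members and 8.42% over all genes.

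All 5 Atg8 genes were highest in replicate 3, and their summed level was 922, 979, 1247 and 905 CPM in replicates 1 to 4. Their share of the reads on the 41 genes was 30.3% in replicate 3 and 24.3% to 26.3% in the others. In that library each exceeded the mean of the other libraries by 0.35 to 0.46 on the log2 scale.

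Short coding sequences in general were high in replicate 3. Of all detected coding genes 37.8% were highest there, and 25 of the 41 members were. The share was 60.5% for genes with coding sequences over 300 and up to 600 nt, where all Atg8 genes fall, and 13.8% for genes over 4800 nt. The median log2 excess of replicate 3 fell with coding length from 0.22 in the first of these classes to −0.01 in the last. The Atg8 genes lay above the median of their class, while Atg12, also of that class, was at 0.22. Longer members went both ways, with Becn1 (1344 nt) at 0.52, Atg16l2 (1869 nt) at 0.37 and Atg7 (2223 nt) at −0.25. By group, all 4 processing proteases and 5 of 7 conjugation genes were also highest in replicate 3, against 1 of 5 cargo receptor genes. The part of coding length in the Atg8 values was not tested. Neuronal and Schwann cell marker sums were highest in the same library too, at 8064 and 20110 CPM, against 6664 to 7524 and 13090 to 19816 in the others. The sensory neuron sum went the other way and was lowest there, at 4221 CPM against 4329 to 4564, and that of satellite glia was highest in replicate 4.

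**Figure D4:**
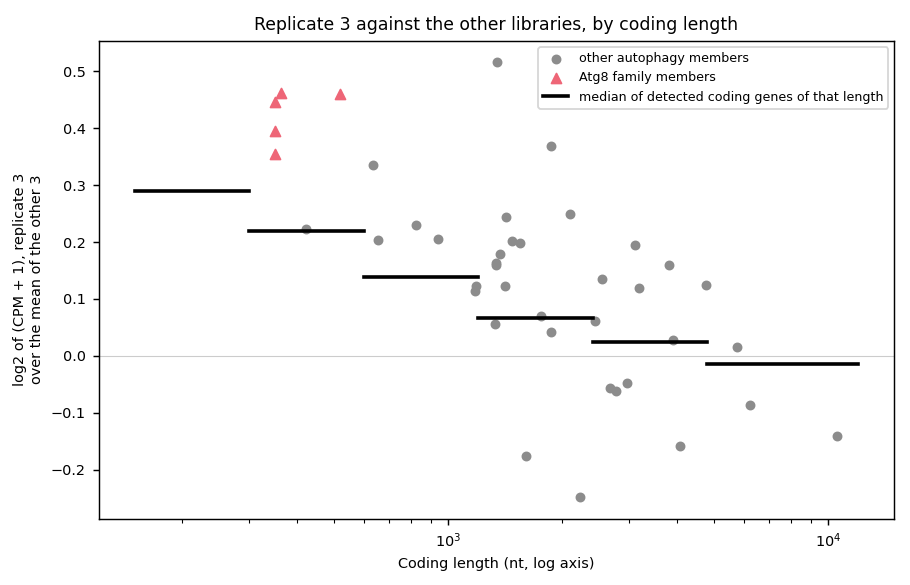
Log2 of (CPM + 1) in replicate 3 over the mean of the other 3 libraries against coding length (log axis), for the Atg8 family (red triangles) and the other members (grey points). Black bars are the medians of all detected coding genes in classes of coding length, and they fall from 0.29 for the shortest to −0.01 for the longest.

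Other genes of the pathway, from a list of 46, were all detected. Of these 32 were called above the median gene and 13 below it in the same limma fit, against the 46.1% and 46.3% of all tested genes. The highest per kb were the reticulon and ER-phagy receptor gene Rtn3 (419 ± 18.3 CPM per kb) and Rab7, the GTPase of late endosomes and lysosomes (376 ± 15.5 CPM per kb). They were followed by the ER-phagy receptor gene Sec62 (161 ± 19.5 CPM per kb) and Tollip, a ubiquitin-binding adaptor (123 ± 9.91 CPM per kb). Retreg1 (Fam134b), an ER-phagy receptor whose loss causes a human sensory neuropathy, stood at 77.2 ± 4.79 CPM per kb, and it was picked after its value was seen. The lowest were Zfyve26 (2.15 ± 0.227 CPM per kb) and Spg11 (4.12 ± 0.377 CPM per kb), 2 spastic paraplegia genes of lysosome re-formation. Plekhm1 (4.83 ± 0.766 CPM per kb), a tether of autophagosomes to lysosomes, was also among the 4 lowest.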

How the data were processed

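Per the labels' protocols, spin columns isolated the ribosome-bound RNA and RiboCop depleted ribosomal RNA. Footprints of 28 to 34 nt were then selected on a gel and turned into libraries with the SMARTer small-RNA kit. The submitters' processing notes name Cufflinks 2.2.1, Bowtie2 2.2.9, TopHat2 2.1.1 and FastQC 0.11.5 and the builds GRCm38.p4 and mm10. Their roles, the counting rule, the use of strand, the annotation and the handling of multiply matching reads are not given in the sources used here. TPM is the unit in the name of the deposited table. Of the values above 0, 96.5% to 96.8% per library were whole multiples, within 0.05, of 1 step, whatever the gene's length. Each column also summed to 1000000, so the deposited values were used as CPM with no length correction. Taking the step as 1 read, replicates 1 to 4 held 5731508, 9255061, 14633415 and 10424946 assigned reads, and 3 reads correspond to 0.523, 0.324, 0.205 and 0.288 CPM. Such limits cover counting error only.

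Of the gene identifiers, 48052 were found in GENCODE M21 (GRCm38) and 379 were not. The level test used limma 3.58.1 in R 4.3.3, with a trended and robust prior, on log2(CPM + 1) minus log2 coding length in kb minus the library's median. Genes needed a mean of 1 CPM or more, with Benjamini-Hochberg adjustment over all of them. The variance test compared each gene's variance with limma's trend. A fold change on the log2(CPM + 1) scale understates that of low genes. For pairs the test was the exact sign-flip permutation over libraries, 2-sided. The unique share is the percent of 30-nt words of the coding sequence that no other annotated gene holds. Both fits were tested on simulated data.

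The members, lists, groups and pairs were chosen with earlier results of these data known. Named were all 41 members, and of the other genes of the pathway the 4 highest and the 4 lowest per kb, of which 1 is not reported here. Tfe3, Mitf and Retreg1 were named outside that rule, after their values were seen. Alternatives changed the pseudocount, the filter, the scaling, the coding length, the prior and the libraries used.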

Additional observations from a re-analysis of the deposited data

Results flagged for a closer look

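Among 72 values looked at (41 genes, 8 group sums and 23 pair ratios), 5 held a library far from the other 3, and chance flags about 1 in 20. Atg7 had 39.7 CPM in replicate 3, against 46.7 to 48.2 CPM in the others. Atg16l2 had 4.24 CPM in replicate 3, against 2.97 to 3.13 CPM. Atg9a had 107.7 CPM in replicate 4, against 136 to 140.3 CPM. The summed CPM of the lipid transfer genes and phosphoinositide readers, which include Atg9a, was 301.7 in replicate 4, against 341.6 to 347.4 in the others. The log2 ratio of Ulk1 over Ulk2 was 1.12 in replicate 2, against 0.71 to 0.78, and Ulk1 was the higher gene in 4 of 4 libraries.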

How the results depend on the processing

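No paired analysis was possible because the libraries form 1 group. The edgeR test was not run, since whole reads could not be recovered for all values. The 41 genes stayed detected, 0 were called variable and the count of pairs with the first gene higher was 14 under every alternative run for those results, though not always in the same pairs. Leaving out 1 library gave 23 to 24 members called above the median gene, 15 called below, a list median of 0.45 to 0.53, 8 to 9 pairs with the second gene higher, and 106 to 205 variable genes in the whole table against 242. Without the filter on low values 757 genes were variable and the list median was 1.24. In that setting 32 members were called above and 7 below, against 8467 and 8452 of 18030 tested genes. With a prior that was not robust 12 genes were variable. The list median was 0.93 with the median coding length and 1.19 without the division by length.

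Of the values for single genes 463 kept direction and call, 22 turned, 5 lost and 2 gained a call. Without the filter the median gene is lower by construction, and the log2 level turned to 0.72 for Ambra1, 0.34 for Atg10, 0.20 for Atg14, 0.11 for Atg2a, 0.27 for Atg2b, 0.11 for Atg4c, 0.30 for Tfeb, 0.50 for Ulk1 and 0.30 for Uvrag. Without the division by length, which raises long genes by construction, it turned to 1.44 for Ambra1, 1.39 for Atg2a, 1.67 for Atg2b, 0.92 for Ulk1, 0.043 for Ulk2 and 0.12 for Uvrag, and Atg13 over Atg101 turned to 0.40. The log2 ratio moved to 1.14 for Ulk3 over Ulk4, 0.011 for Pik3c3 over Pik3r4, −1.69 for Becn1 over Pik3c3, −0.23 for Atg5 over Atg12, 2.22 for Sqstm1 over Nbr1 and 2.60 for Sqstm1 over Map1lc3b. With the median coding length it turned to −0.038 for Atg16l1, 1.43 for Tfeb, 0.16 for Ulk1, 1.18 for Uvrag and −0.34 for Wipi1, Pik3c3 over Pik3r4 to −1.38 and Becn1 over Pik3c3 to 1.17. Ambra1 was also at 0.014 with a pseudocount of 0.1 and at 3.7e-04 after rescaling without mitochondrial and the 20 highest genes. Depth limits the lowest genes most, with 10 reads for Atg9b in replicate 1.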
